A study of Mus musculus with 15 samples.

Results

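The genes described here are the mouse chemokines and their receptors other than the CXCR2 axis. They were taken from the deposited count table by symbol: every Ccl, Ccr, Cxcl, Cxcr, Cx3c, Xcl1 and Xcr1 gene together with the atypical receptors Ackr1 to Ackr4, leaving out the 6 genes Cxcl1, Cxcl2, Cxcl3, Cxcl5, Cxcr1 and Cxcr2. Of 36144 genes in the table, 58 matched, and 37 of these had at least 10 counts in at least 3 libraries, of which 36 are described. The other 21 had at most 25 counts in any library, and 3 of them (Ccl26, Ccl27b and Ccl19-ps3) had 0 counts in all libraries.

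Bulk RNA sequencing covered 15 samples of mouse stomach, tumors of 4 sites and normal tissue, with 3 libraries in each of the 5 groups. Tumors came from the antrum, from the greater curvature where it borders the cardia, from the lesser curvature where it borders the cardia, and from the corpus. Every sample, the normals included, was from C57BL/6 mice 7-8 weeks old that carried Pou2f3-CreERT with floxed alleles of both tumor suppressors (Rb1fl/fl and Trp53fl/fl) and the Cre-dependent LSL-MycT58A, given tamoxifen intraperitoneally at 50 mg/kg (20 mg/mL) for 1 day and labelled 5 weeks. Pou2f3, whose promoter drives the tamoxifen-activated Cre, encodes the transcription factor that tuft cells (chemosensory cells in the lining of the gut) depend on. Cre removes Rb1 and Trp53 and turns on a Myc that resists degradation, so the normals are tissue with the same alleles and induction, not untreated or wild-type tissue. The part of the stomach the normals came from is not given. Libraries are named by site and replicate (antrum 1, normal 2). The labels call the replicates biological and do not name the animals. The p-values therefore cover the spread between these samples alone, which may be technical in part.

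Chemokines are small secreted proteins, grouped as C, CC, CXC and CX3C by the spacing of their first cysteines, that guide leukocytes by binding receptors coupled to G proteins. Inflammatory chemokines such as CCL2 are made on demand by macrophages, fibroblasts and epithelium. Homeostatic ones such as CXCL12, CXCL13 and CCL21 place cells in tissues and lymphoid structures. Atypical receptors (ACKR) bind chemokines without G protein signaling and remove, store or transport them. In the mouse stomach, resident macrophages, fibroblasts, lymphatic vessels and the epithelium itself are all known sources.

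Libraries held 7957165 to 21564972 counts, and 1 count was worth 0.0478 to 0.112 CPM, that is, counts in a TMM-scaled library of 1000000. The 36 genes together took 0.0129 to 0.0396% of the counts of a library. Greater curvature 2 and corpus 1 lay among the normals on the first principal component of all genes, which held 46.9% of the variance, and each count below was also computed without both. Normal 2 held 7269 CPM of 11 squamous epithelial markers summed, against 13 and 5.89 CPM in the other normals. Antrum 1 and lesser curvature 1 had the lowest summed levels of 10 epithelial markers, 246 and 216 CPM, against 1921 CPM or more in the other 10 tumors and 4229 to 12540 CPM in normals.

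Tumors carried more RNA of the monocyte-attracting CC chemokines Ccl2, Ccl7, Ccl3 and Ccl4 and of the receptor Cx3cr1, and less of the lymphoid chemokines Ccl21a, Ccl21b and Cxcl13 and of the atypical receptors Ackr1 and Ackr4. Cxcl10, an interferon-induced ligand of CXCR3, and Ccl25, a mucosal ligand, were also higher. In all, 12 of the 35 members tested in all tumors against normal were called by edgeR's quasi-likelihood test at an adjusted p under 0.05, 7 higher (20.0%) and 5 lower (14.3%). Among all 16224 genes tested, 31.9% were called, so the share of 34.3% among the chemokine genes was close to that of any gene. The number of calls therefore does not set these genes apart, and they are described one by one. The median log2 fold change was -0.172 over the 35 members and -0.043 over all genes. On the TPM table (limma on log2 of TPM plus 1), 91.2% of the genes called were higher in tumors, against 50.8% in edgeR, while the members split 8 higher to 5 lower on the TPM table and 7 to 5 in edgeR. Leaving out greater curvature 2 and corpus 1 gave 12 calls again, 7 higher and 5 lower. Leaving out normal 1, 2 or 3 gave 8, 7 and 7 calls. In bulk tissue, fewer cells of a type and less RNA per cell cannot be told apart.

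**Figure D1:**
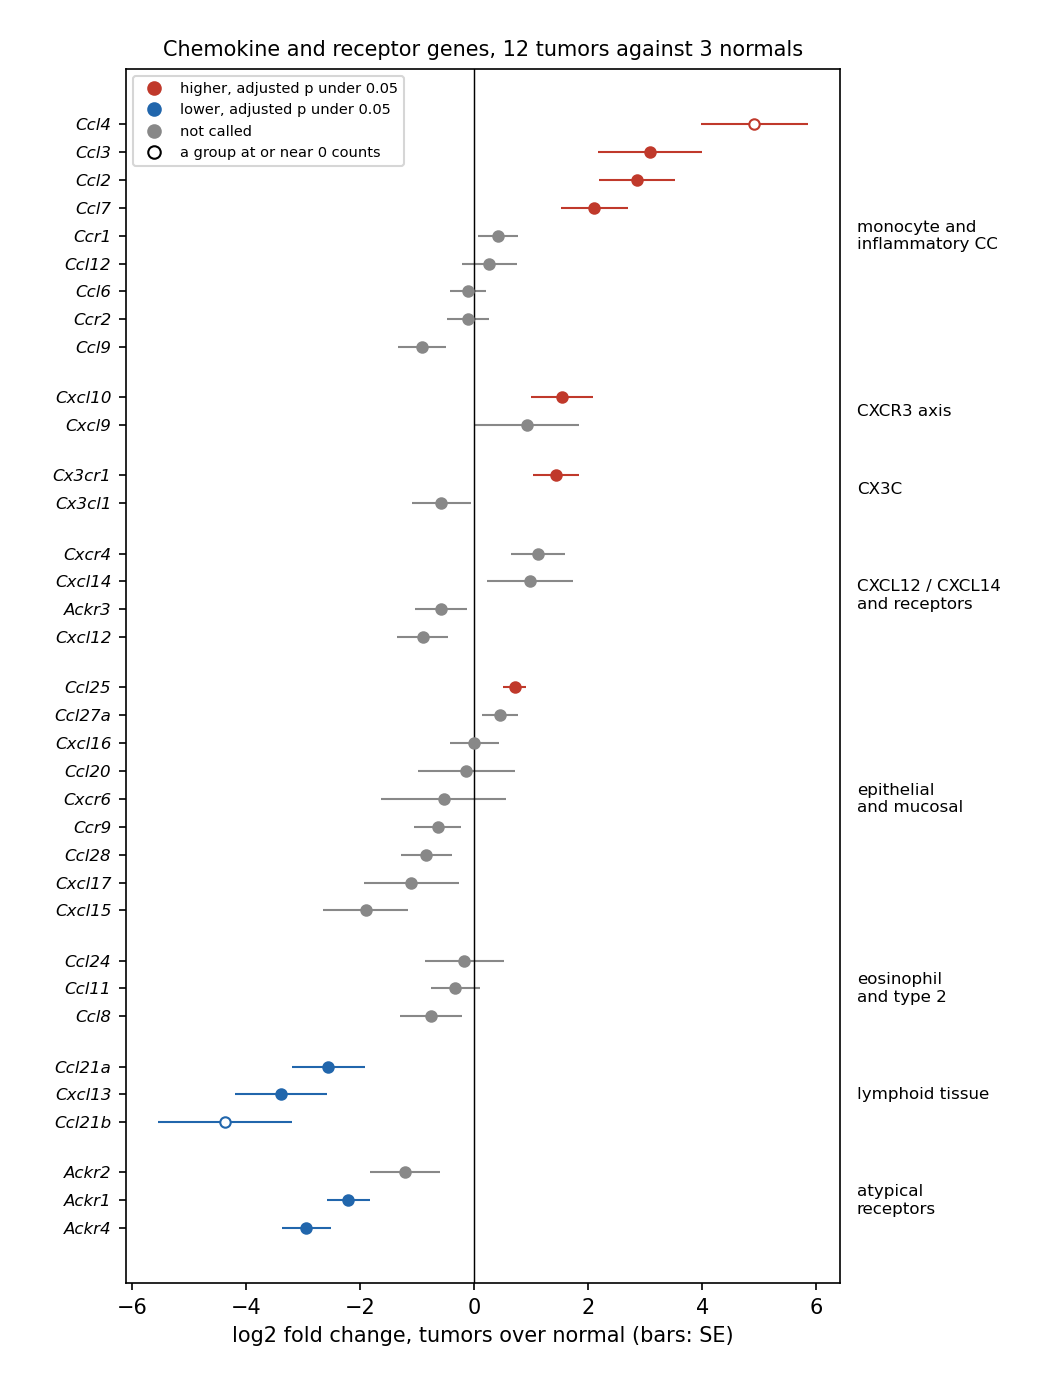
Log2 fold change of the 35 tested genes in all 12 tumors over the 3 normals (edgeR; x axis), with bars of 1 SE, grouped by role down the page; red and blue mark genes called higher and lower at an adjusted p under 0.05, and open symbols genes with a group at or near 0 counts. The calls that are higher lie mostly in the monocyte and inflammatory group (4 of 9) and those that are lower in the lymphoid tissue (3 of 3) and atypical receptor (2 of 3) groups; Ackr3, an atypical receptor that was not called, is drawn with its ligand Cxcl12.

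The monocyte and inflammatory CC group holds the ligands Ccl2, Ccl3, Ccl4, Ccl5, Ccl6, Ccl7, Ccl9 and Ccl12 and the receptors Ccr1 and Ccr2. Of the 9 members tested, 4 rose in tumors, none fell, and the median log2 fold change of the group was 0.42. Among all genes, 16.2% were called higher and 15.7% lower. Ccl2 (chr11:82035571-82037453, plus strand) encodes the main ligand of CCR2 and recruits monocytes. Its level was 3.69, 4.08 and 16.4 CPM in antrum tumors, 6.97, 7.9 and 7.12 CPM in greater curvature tumors, 4.23, 5.93 and 5.01 CPM in lesser curvature tumors and 7.35, 9.93 and 10.6 CPM in corpus tumors, against 2.13, 0.611 and 0.229 CPM in normals. All 12 tumors lay above all normals, antrum 3 was the highest tumor and normal 1 the highest normal. Ccl2 averaged 7.43 ± 3.57 CPM in tumors (SD, n = 12) and 0.99 ± 1.01 CPM in normals (SD, n = 3), a 7.24-fold difference (log2 fold change 2.85, SE 0.66, adjusted p = 0.00919). Without normal 1 the log2 fold change was 4.10 (adjusted p = 0.00915). It was called at each of the 4 sites, with log2 fold changes of 3.0 in the antrum, 2.87 in the greater curvature, 2.33 in the lesser curvature and 3.21 in the corpus.

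Ccl7, next to Ccl2 (chr11:82045712-82047525, plus strand), encodes a second ligand of CCR2. It stood at 1.29, 1.51 and 6.83 CPM in antrum tumors, 1.46, 3.01 and 1.36 CPM in greater curvature tumors, 1.33, 1.68 and 1.53 CPM in lesser curvature tumors and 2.85, 4.94 and 2.76 CPM in corpus tumors, against 0.735, 0.611 and 0.306 CPM in normals. Antrum 3 was again the highest, and no tumor overlapped the normals. In edgeR its log2 fold change was 2.11 (SE 0.59, adjusted p = 0.0192), and it lost the call without normal 2 (adjusted p = 0.0621) or normal 3 (adjusted p = 0.089). Ccl7 was called in the antrum (log2 fold change 2.53, adjusted p = 0.0308) and missed the threshold at the other sites. Ccl11, Ccl12 and Ccl8 lie in the same stretch of chromosome 11 and were not called, with log2 fold changes of -0.33, 0.27 and -0.76.

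Ccl4 (chr11:83662584-83664683, plus strand) and Ccl3 (chr11:83647844-83649355, minus strand), neighbors on the same chromosome, encode the macrophage inflammatory proteins 1-beta and 1-alpha, which attract monocytes and T cells; CCL3 binds CCR1. Ccl4 was close to absent from the normals. Its level was 0.922, 0.583 and 1.27 CPM in antrum tumors, 0.627, 1.02 and 0.838 CPM in greater curvature tumors, 2.06, 1.9 and 0.86 CPM in lesser curvature tumors and 0.237, 1.68 and 0.541 CPM in corpus tumors, against 0.0735, 0 and 0 CPM in normals. Summed over libraries it had 213 counts in tumors and 1 count in normals, a ratio of 39.9 after scaling for depth with an exact 95% interval of 7.08 to 1582 that covers counting error only. All 12 tumors lay above all normals, the lowest being corpus 1. edgeR called it (adjusted p = 0.00444), with a fitted log2 fold change of 4.91 (SE 0.93) that depends on the prior count and was 7.05 without normal 1, the only normal with a count (adjusted p = 0.0146). Ccl4 was called at all 4 sites as well, with adjusted p of 0.016 in the antrum, 0.0225 in the greater curvature, 0.00471 in the lesser curvature and 0.035 in the corpus.

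Ccl3 stood at 1.41, 0.699 and 3.52 CPM in antrum tumors, 2.58, 1.83 and 2.31 CPM in greater curvature tumors, 6.78, 1.34 and 2.82 CPM in lesser curvature tumors and 0.316, 1.91 and 0.865 CPM in corpus tumors, against 0.22, 0 and 0.459 CPM in normals. Lesser curvature 1 was the highest library, and corpus 1 was the only tumor within the range of the normals. Tumors over normals, the log2 fold change was 3.08 (SE 0.91, adjusted p = 0.0247), and 3.95 in the lesser curvature (adjusted p = 0.0155), the only site where it was called. It lost the pooled call without normal 1 (adjusted p = 0.0787) or normal 2 (adjusted p = 0.0755), and without normal 3 its log2 fold change was 4.03 (adjusted p = 0.0426). Ccl9 and Ccl6, further ligands of CCR1 in the same cluster, did not pass the test, with log2 fold changes of -0.91 and -0.11. Across the 12 tumors Ccl6 ran from 4.74 to 23.7 CPM around a median of 15.6 CPM, and the 3 corpus tumors (4.74, 9.93 and 7.19 CPM) were among its 5 lowest libraries.

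Ccr2, the monocyte receptor for CCL2 and CCL7, was not called. It stood at 1.17, 3.21 and 1.21 CPM in antrum tumors, 2.09, 3.72 and 2.15 CPM in greater curvature tumors, 1.33, 3.25 and 1.86 CPM in lesser curvature tumors and 3.32, 3.25 and 4.05 CPM in corpus tumors, against 2.94, 3.14 and 1.91 CPM in normals. Tumors lay on both sides of the normals, and the log2 fold change was -0.11 (SE 0.37, adjusted p = 0.835). Ccr1 had a log2 fold change of 0.42 (SE 0.35, adjusted p = 0.359). Ccl5, a T cell and NK cell product, fell short of 10 counts in all but 2 libraries. It had 2, 5 and 8 counts in antrum tumors, 7, 11 and 14 in greater curvature tumors, 4, 4 and 9 in lesser curvature tumors and 2, 8 and 5 in corpus tumors, against 7, 5 and 3 counts in normals, too few to show a difference at this depth.

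Macrophage and monocyte markers, summed, were also higher in tumors than in normals. Among tumors their sum was lowest in antrum 3 (198 CPM), the library highest in Ccl2 and Ccl7. Of 12 such markers, 6 rose and 1 fell in tumors, their summed level was 198 to 411 CPM in tumors and 159 to 181 CPM in normals, and none was at 0 in all libraries. Cd14, the lipopolysaccharide co-receptor of monocytes, averaged 18.1 ± 8.21 CPM in tumors (SD, n = 12) and 5.05 ± 0.217 CPM in normals (SD, n = 3), its log2 fold change being 1.75 (adjusted p = 0.00586). Cd68, a lysosomal protein of macrophages, averaged 20.3 ± 5.14 CPM in tumors (n = 12) and 9.66 ± 1.24 CPM in normals (n = 3), a log2 fold change of 1.06 (adjusted p = 0.0101). Neutrophil markers summed to 4.90 to 92.9 CPM in tumors and 10.5 to 20.7 CPM in normals, and 1 of 6 tested, Csf3r, rose. The part of these markers in the chemokine levels was not tested.

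**Figure D2:**
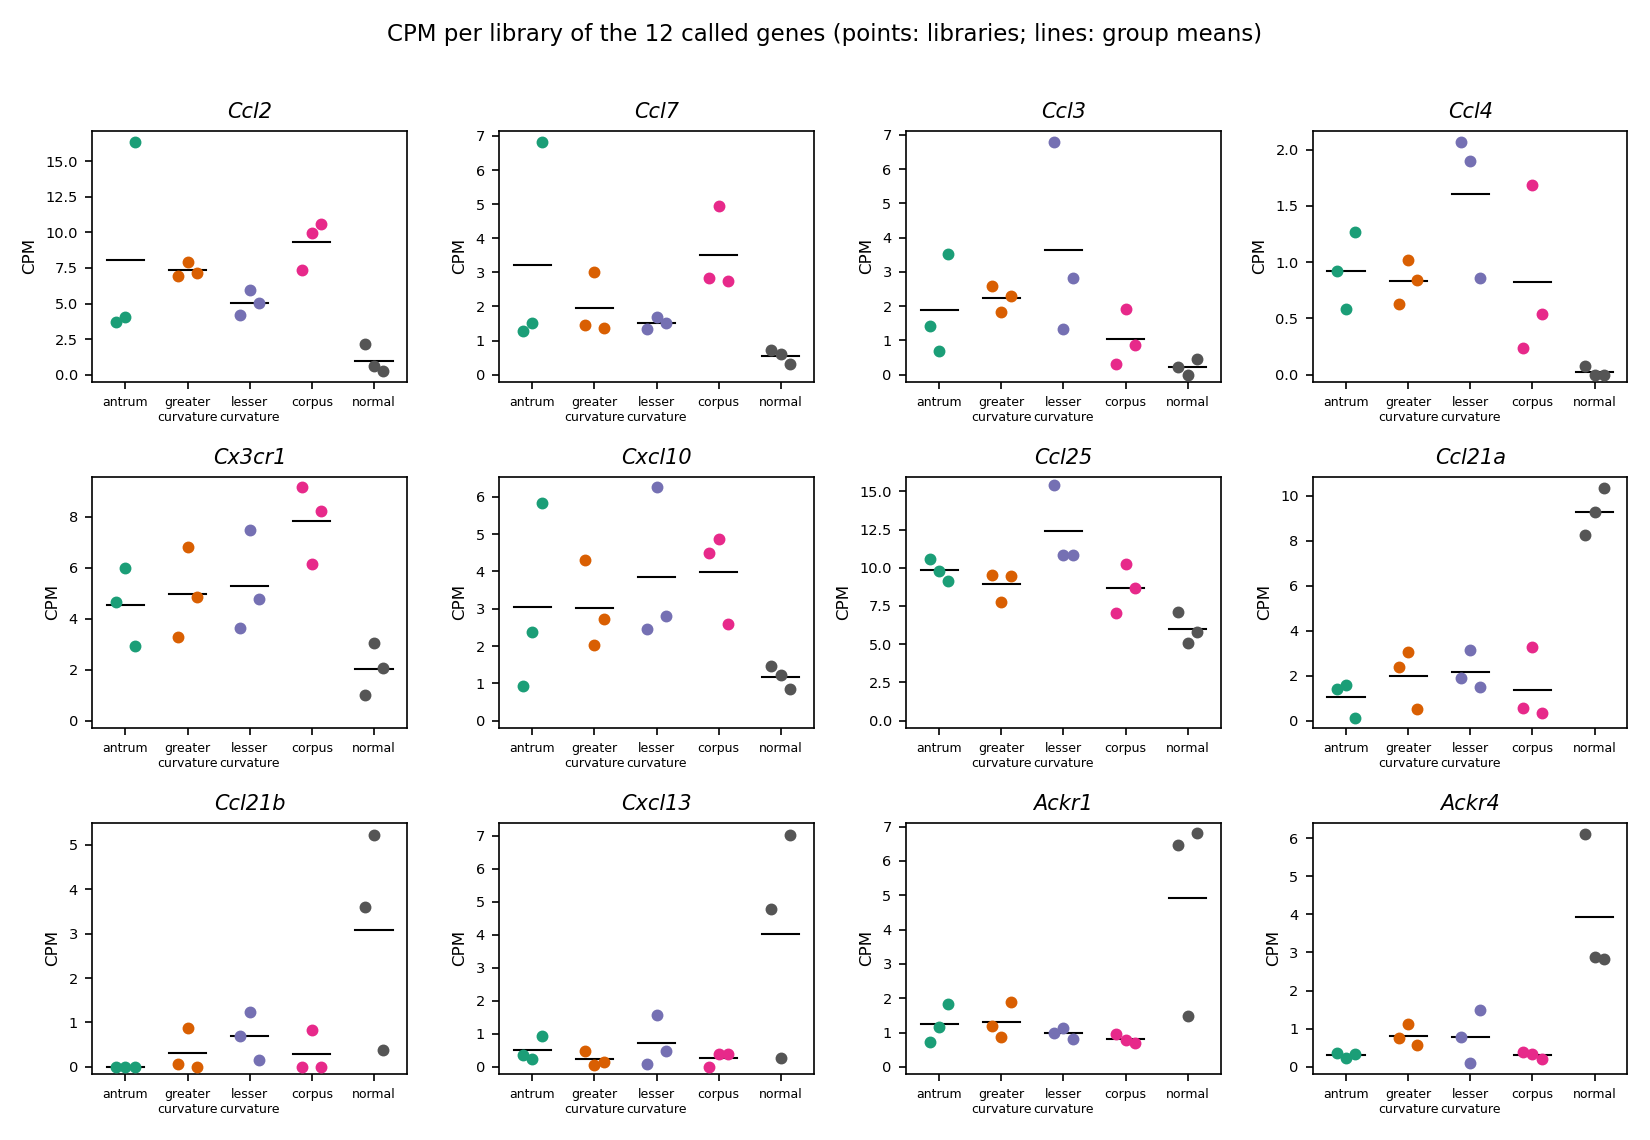
CPM per library (y axis, linear, a scale for each gene) of the 12 genes called in all tumors against normal, by group along the x axis, with the 4 tumor sites left of the normals; points are libraries and lines group means. For Ccl2, Ccl4 and Ccl7 all tumors lie above all normals, for Ccl21a and Ackr4 all lie below, and normal 2 is apart from the other normals for Cxcl13 and Ackr1.

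For 3 of the 35 members (Ccl2, Ccl4 and Ccl7) all tumors lay above all normals, and for Ccl21a and Ackr4 all tumors lay below. Among all genes tested, 9.58% had all tumors above and 6.65% all tumors below.

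Fractalkine, encoded by Cx3cl1, is a membrane-bound chemokine of epithelium and endothelium, and its receptor CX3CR1 marks resident macrophages and patrolling monocytes. The receptor was higher in tumors and the ligand was not called. Cx3cr1 (chr9:119901616-120069879, minus strand) stood at 4.67, 6 and 2.92 CPM in antrum tumors, 3.27, 6.83 and 4.87 CPM in greater curvature tumors, 3.64, 7.5 and 4.78 CPM in lesser curvature tumors and 9.17, 6.17 and 8.22 CPM in corpus tumors, against 1.03, 3.05 and 2.06 CPM in normals. In 11 of 12 tumors it lay above all normals, antrum 3 being the exception and corpus 1 the highest. In edgeR its log2 fold change was 1.43 (SE 0.40, adjusted p = 0.0192), and it was called in the lesser curvature (1.37, adjusted p = 0.0406) and the corpus (1.94, adjusted p = 0.0451). Without normal 1 or normal 3 the pooled call was lost, at adjusted p of 0.0765 and 0.0705. Of the XC branch, Xcl1 and Xcr1, the ligand and receptor that bring cross-presenting dendritic cells to T and NK cells, did not reach the count minimum.

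Cxcl9 and Cxcl10 (chr5:92346638-92348889, minus strand) encode CXCR3 ligands, which draw activated T and NK cells and are induced by interferon. Their promoters are printed because Cxcl10 was called and Cxcl9, its neighbor on chromosome 5, was not. The difference between the 2 genes was not tested. The windows are the 250 bases before the start site in RefSeq (GRCm38.p6, minus strand, read 5′ to 3′), chr5:92348890-92349139 for Cxcl10 and chr5:92328080-92328329 for Cxcl9. Capitals mark letters matching the NF-kappaB motif or the interferon-stimulated response element (GAAA, any 2 bases, then GAAA), searched on both strands. The NF-kappaB letters were GGG, A or G, any base, A or T, 2 bases each C or T, then CC. Only exact matches were searched, so a window without one may hold a looser one.
Cxcl10: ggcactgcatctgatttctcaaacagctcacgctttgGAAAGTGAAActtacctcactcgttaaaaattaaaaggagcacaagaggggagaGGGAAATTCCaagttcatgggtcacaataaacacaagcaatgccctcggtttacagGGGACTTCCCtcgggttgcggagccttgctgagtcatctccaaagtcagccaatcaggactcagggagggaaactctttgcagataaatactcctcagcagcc
Cxcl9: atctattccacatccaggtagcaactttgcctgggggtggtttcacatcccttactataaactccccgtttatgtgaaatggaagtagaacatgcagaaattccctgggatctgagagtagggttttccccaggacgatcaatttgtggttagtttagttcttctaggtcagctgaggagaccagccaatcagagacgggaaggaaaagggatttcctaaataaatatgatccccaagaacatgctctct
The Cxcl10 window holds 2 NF-kappaB matches, starting 159 and 103 bases before the start site, 1 interferon-stimulated response element 213 bases before it, and 1 match to the AP-1 motif (TGANTCA, not capitalized) 74 bases before it. The Cxcl9 window holds no match to these letters or to the gamma-activated site (TTCNNNGAA). No match overlapped another. Of 32851 promoter windows of the same length, 3.9% hold the NF-kappaB motif, 2.98% the interferon-stimulated response element, 7.02% the gamma-activated site and 6.75% AP-1. Of the 36 genes, 28 matched an entry, and among these Ackr2, Ccl20, Ccl9 and Cxcl10 hold an NF-kappaB match and Cxcl10 and Cxcl14 an interferon-stimulated response element. A match of letters is a description and not a binding site.

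Cxcl10 stood at 0.922, 2.39 and 5.84 CPM in antrum tumors, 4.32, 2.04 and 2.72 CPM in greater curvature tumors, 2.46, 6.27 and 2.82 CPM in lesser curvature tumors and 4.51, 4.88 and 2.6 CPM in corpus tumors, against 1.47, 1.22 and 0.841 CPM in normals. All tumors but antrum 1 lay above all normals, and lesser curvature 2 and antrum 3 were the highest. It averaged 3.48 ± 1.64 CPM in tumors (SD, n = 12) and 1.18 ± 0.317 CPM in normals (SD, n = 3), with a log2 fold change of 1.54 (SE 0.54, adjusted p = 0.0478). This call was the least stable of the 12: it was lost under 13 of 23 other settings, among them leaving out any 1 normal, corpus or lesser curvature library and greater curvature 1 or 3, at adjusted p of 0.0512 to 0.167. Its exons share 5.9% of their bases with Art3 on the opposite strand, which was lower in tumors (log2 fold change -3.44, adjusted p = 0.00053), and no source used here says whether the counting used strand.

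Cxcl9 stood at 0.0615, 0.35 and 0.385 CPM in antrum tumors, 1.74, 1.43 and 0.105 CPM in greater curvature tumors, 0.0491, 0.895 and 0.287 CPM in lesser curvature tumors and 1.34, 1.85 and 1.03 CPM in corpus tumors, against 0.0735, 0.611 and 0.306 CPM in normals. Greater curvature 1 and 2 and the corpus tumors were above all normals, as was lesser curvature 2, while antrum 1 and lesser curvature 1 were below all normals. Tumors over normals, the log2 fold change was 0.93 (SE 0.91, adjusted p = 0.428). The third ligand, Cxcl11, had at most 7 counts and the receptor Cxcr3 at most 5 counts in any library. T cell markers were near their limit of detection: 4 of 12 could be tested, Cd4, which macrophages can also carry, was the only one higher (log2 fold change 1.74, adjusted p = 0.0108), and their summed level was 7.46 to 13.6 CPM in tumors and 5.58 to 10.8 CPM in normals. NK cell markers summed to 0.246 to 2.09 CPM in tumors and 0.994 to 2.01 CPM in normals, and none of 8 could be tested.

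CXCL12, made by stromal cells, retains leukocytes and stem cells through CXCR4, and ACKR3 takes it up. None of the 4 genes of the CXCL12 and CXCL14 group was called in any comparison. Cxcl12 stood at 8.54, 32.6 and 37.5 CPM in antrum tumors, 42.1, 51.4 and 15.8 CPM in greater curvature tumors, 8.85, 33.9 and 14.7 CPM in lesser curvature tumors and 50.4, 41.4 and 50.8 CPM in corpus tumors, against 70.3, 38.6 and 62.3 CPM in normals. No tumor exceeded the highest normal, antrum 1 and lesser curvature 1 were the lowest, and the log2 fold change was -0.9 (SE 0.44, adjusted p = 0.125). Its receptor gene Cxcr4 stood at 8.97, 9.38 and 5.51 CPM in antrum tumors, 6.55, 9.27 and 26.3 CPM in greater curvature tumors, 21.4, 6.38 and 11.3 CPM in lesser curvature tumors and 4.35, 8.53 and 7.68 CPM in corpus tumors, against 4.92, 5.67 and 3.21 CPM in normals. Greater curvature 3 and lesser curvature 1 were far above the rest, and 10 of 12 tumors were above all normals. The log2 fold change was 1.12 (SE 0.47, adjusted p = 0.0856). DESeq2 called it (adjusted p = 0.0377), as did limma on the TPM table (1.35, adjusted p = 0.0216).

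Ackr3 stood at 2.58, 10.4 and 20.9 CPM in antrum tumors, 6.34, 16.8 and 6.08 CPM in greater curvature tumors, 4.18, 7.72 and 7.88 CPM in lesser curvature tumors and 9.8, 7.91 and 6.76 CPM in corpus tumors, against 12, 14 and 13.2 CPM in normals. The normals were close together and the tumors spread around them, with 10 of 12 below all normals and a log2 fold change of -0.57 (SE 0.46, adjusted p = 0.33). Cxcl14, an epithelial and fibroblast chemokine that binds CXCR4 without a settled receptor of its own, stood at 1.17, 20.3 and 32.5 CPM in antrum tumors, 15.8, 28.6 and 20.5 CPM in greater curvature tumors, 1.57, 15.9 and 12.2 CPM in lesser curvature tumors and 23, 19.2 and 16.4 CPM in corpus tumors, against 6.54, 6.46 and 12.2 CPM in normals. In 9 of 12 tumors it lay above all normals, while antrum 1 and lesser curvature 1 lay far below them, and the log2 fold change was 0.98 (SE 0.76, adjusted p = 0.318).

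The lymphoid tissue group, CXCL13 and CCL21 with CCL19, CCR7 and CXCR5, builds and populates lymphoid follicles, and CCL21 from lymphatic endothelium draws dendritic cells and T cells that carry CCR7 into lymph vessels. All 3 members that could be tested (Ccl21a, Ccl21b and Cxcl13) fell, with a median log2 fold change of -3.38. Among all genes tested, 15.7% were called lower. Ccl21a and Ccl21b are not independent measurements, because part of their reads is split between them by estimation. Mice carry near-identical copies of Ccl21, so the transcripts are shown to make clear how far the counts can separate them. The Ccl21b transcript in GENCODE M21 has 402 bases from start to stop codon and is 99.5% identical to the matching stretch of Ccl21a. The Ccl21a transcript has 870 bases, and the rest of it has no counterpart in this Ccl21b transcript. Bases 64 to 214, counted from 1 at the start codon of Ccl21b, are printed from both genes (chromosome 4), with the differing positions in capitals. The differences, Ccl21a base first, are T84A and C194T.
Ccl21a: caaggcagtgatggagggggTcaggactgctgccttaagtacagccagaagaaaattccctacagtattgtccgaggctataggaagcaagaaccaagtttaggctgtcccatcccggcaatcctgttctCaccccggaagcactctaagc
Ccl21b: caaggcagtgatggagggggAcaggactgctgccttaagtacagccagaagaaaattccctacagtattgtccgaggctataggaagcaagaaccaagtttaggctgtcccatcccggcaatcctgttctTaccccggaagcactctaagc
The products of these copies are known as the serine and leucine forms of CCL21. Reads within the matching stretch that cover neither position are split between copies by estimation. The separate values are therefore uncertain, and the sum is given too.

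Ccl21a (chr4:42772860-42773993, minus strand) stood at 1.41, 1.57 and 0.11 CPM in antrum tumors, 2.37, 3.06 and 0.524 CPM in greater curvature tumors, 1.92, 3.13 and 1.48 CPM in lesser curvature tumors and 0.553, 3.25 and 0.324 CPM in corpus tumors, against 8.23, 9.25 and 10.3 CPM in normals. All 12 tumors lay below all normals, and antrum 3 had the lowest value. In edgeR its log2 fold change was -2.55 (SE 0.64, adjusted p = 0.0123), and no single site reached the threshold. Ccl21b (chr4:42255767-42256432, plus strand) stood at 0, 0 and 0 CPM in antrum tumors, 0.0697, 0.866 and 0 CPM in greater curvature tumors, 0.688, 1.23 and 0.143 CPM in lesser curvature tumors and 0, 0.841 and 0 CPM in corpus tumors, against 3.6, 5.23 and 0.382 CPM in normals. It had 0 counts in 6 of 12 tumors, all of the antrum among them, and normal 3 was at the level of the tumors. edgeR called it (adjusted p = 0.0202), with a fitted log2 fold change of -4.36 (SE 1.17), and lost the call without normal 1 (adjusted p = 0.0587) or normal 2 (log2 fold change -3.75, adjusted p = 0.0865). Its fitted log2 fold change was -5.67 without corpus 2 (adjusted p = 0.0148) and -5.12 without greater curvature 2 (adjusted p = 0.00821). In the antrum Ccl21b had 0 counts against 114 in normals (49, 60 and 5), a difference that edgeR called (adjusted p = 0.0487). Taking 3 counts over the group as the limit that a count of 0 allows, it was at least 51.4-fold lower. This bound covers counting error only, not the spread of the normals or the split of reads between copies. Summed, the copies Ccl21a, Ccl21b and Ccl21c averaged 1.97 ± 1.52 CPM in tumors (range 0.110 to 4.36, SD, n = 12). In normals they averaged 12.4 ± 1.85 CPM (range 10.9 to 14.5, n = 3), a difference of -10.4 CPM. An exact permutation test gave a two-sided p of 0.0044, the smallest it can give with 455 arrangements. It treats the 15 libraries as independent, which the labels do not settle, since they do not name the animals.

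Cxcl13 (chr5:95956951-95961068, plus strand), the B cell attractant, stood at 0.369, 0.233 and 0.936 CPM in antrum tumors, 0.488, 0.051 and 0.157 CPM in greater curvature tumors, 0.0983, 1.57 and 0.478 CPM in lesser curvature tumors and 0, 0.393 and 0.379 CPM in corpus tumors, against 4.78, 0.262 and 7.03 CPM in normals. Normal 1 and normal 3 were above all tumors, while normal 2 was among them. It averaged 0.429 ± 0.438 CPM in tumors (SD, n = 12) and 4.02 ± 3.45 CPM in normals (SD, n = 3), with a log2 fold change of -3.38 (SE 0.81, adjusted p = 0.0108), and -3.93 without normal 2 (adjusted p = 0.00938). It lost the call without normal 3 (log2 fold change -2.71, adjusted p = 0.0741). On the TPM table (limma) the call was also lost with a pseudocount of 0.1 and with no filter. B and plasma cell markers summed to 75.2 to 457 CPM in tumors and 183 to 360 CPM in normals, and none of 4 tested was called. Ccr7 reached the count minimum in 3 libraries but not the expression filter of the test, with 0.0491 to 1.07 CPM in tumors and 0.147 to 0.436 CPM in normals. Ccl19 had at most 9 counts and Cxcr5 at most 2 counts in any library.

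Of the 4 atypical receptors, Ackr1 and Ackr4 fell, and Ackr2 and Ackr3 (given above with CXCL12) were not called. Ackr1 (chr1:173331886-173333750, minus strand), the Duffy receptor of venular endothelium and red cell precursors, which transports inflammatory chemokines across vessel walls, stood at 0.738, 1.17 and 1.82 CPM in antrum tumors, 1.19, 0.866 and 1.89 CPM in greater curvature tumors, 0.983, 1.12 and 0.812 CPM in lesser curvature tumors and 0.949, 0.785 and 0.703 CPM in corpus tumors, against 6.46, 1.48 and 6.8 CPM in normals. Tumors varied little, 10 of 12 were below all normals, and the other two were above normal 2, the lowest normal. It averaged 1.08 ± 0.393 CPM in tumors (SD, n = 12) and 4.92 ± 2.98 CPM in normals (SD, n = 3), 4.61-fold lower in the fit (log2 fold change -2.2, SE 0.38, adjusted p = 0.00304), and without normal 2 the log2 fold change was -2.63 (adjusted p = 0.00158). Ackr1 shares 25.7% of its exonic bases with Cadm3 on the same strand, a cell adhesion gene of neurons, which was also lower (log2 fold change -1.91, adjusted p = 0.00329). Its reads and those of Cadm3 in the shared part cannot be told apart.

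Ackr4 (chr9:104084157-104126933, minus strand), a scavenger of CCL19, CCL21 and CCL25 on lymphatic and stromal cells, stood at 0.369, 0.233 and 0.33 CPM in antrum tumors, 0.766, 1.12 and 0.576 CPM in greater curvature tumors, 0.786, 0.112 and 1.48 CPM in lesser curvature tumors and 0.395, 0.337 and 0.216 CPM in corpus tumors, against 6.1, 2.88 and 2.83 CPM in normals. All 12 tumors were below all normals, and normal 1 was the highest library. Tumors over normals, the log2 fold change was -2.94 (SE 0.44, adjusted p = 0.00188), which makes it 7.66-fold lower, and it was called at all 4 sites, with log2 fold changes of -3.63 in the antrum, -2.25 in the greater curvature, -2.25 in the lesser curvature and -3.62 in the corpus. Its exons share 8.9% of their bases with Acad11 on the opposite strand (log2 fold change -1.27, adjusted p = 0.0715). Ackr2, the scavenger of inflammatory CC chemokines, was at 0 to 1.46 CPM in tumors and 0.523 to 1.76 CPM in normals and was not called (log2 fold change -1.21, SE 0.61, adjusted p = 0.138).

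Some markers of vessels and all those listed for smooth muscle were also lower in tumors. Among all genes tested, 15.7% were called lower. Of 6 lymphatic endothelial markers, 3 fell and 1, Prox1, which neuroendocrine cells also use, rose. Their sum was 26.4 to 210 CPM in tumors and 42.2 to 85.7 CPM in normals, of which Prox1 averaged 70.5 CPM in tumors and 5.5 CPM in normals. Lyve1, the hyaluronan receptor of lymphatic endothelium, averaged 3.62 ± 1.15 CPM in tumors (SD, n = 12) and 21.1 ± 5.68 CPM in normals (SD, n = 3), a log2 fold change of -2.57 (adjusted p = 0.00053). Mmrn1 averaged 1.26 ± 1.09 CPM in tumors (n = 12) and 13.7 ± 6.23 CPM in normals (n = 3), a log2 fold change of -3.78 (adjusted p = 0.00391). Of 9 blood endothelial markers tested, 2 fell (Vwf and Pecam1) and none rose, with sums of 88.9 to 291 CPM in tumors and 159 to 339 CPM in normals. All 10 smooth muscle markers fell, and their summed level was 194 to 1194 CPM in tumors and 4633 to 6519 CPM in normals. No marker of these lists was at 0 in all libraries. The part of vessels and muscle in the levels of Ccl21a, Ccl21b, Cxcl13, Ackr1 and Ackr4 was not tested.

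Of the 9 tested epithelial and mucosal genes, Ccl25 rose and none fell, against 16.2% of all genes called higher and 15.7% lower. Ccl25 (chr8:4325210-4360020, plus strand), known as the small intestinal and thymic ligand of CCR9, stood at 10.6, 9.79 and 9.14 CPM in antrum tumors, 9.55, 7.74 and 9.43 CPM in greater curvature tumors, 15.4, 10.8 and 10.8 CPM in lesser curvature tumors and 7.04, 10.3 and 8.65 CPM in corpus tumors, against 7.13, 5.06 and 5.81 CPM in normals. In 11 of 12 tumors it was above all normals, lesser curvature 1 being the highest and corpus 1 the exception. It averaged 9.94 ± 2.1 CPM in tumors (SD, n = 12) and 6 ± 1.05 CPM in normals (SD, n = 3), with a log2 fold change of 0.71 (SE 0.20, adjusted p = 0.0201), the smallest of the 12 called, and 1.04 in the lesser curvature (adjusted p = 0.0106). It lost the pooled call without normal 2 (adjusted p = 0.0904) or normal 3 (adjusted p = 0.0806). Its exons share 2.7% of their bases with Elavl1 on the opposite strand, an abundant gene that was higher in tumors (log2 fold change 0.92, adjusted p = 0.00822). Ccr9 was at 0.279 to 1.5 CPM in tumors and 0.872 to 1.68 CPM in normals and was not called.

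Cxcl17, a mucosal chemokine of the stomach and airways, had the highest level of the group per transcript length, 84.8 ± 58.3 TPM in tumors (SD, n = 12) and 120 ± 14.4 TPM in normals (n = 3). In CPM it ran from 0.786 to 106 in tumors around a median of 38.5, against 68.1 to 86.8 in normals. Lesser curvature 1 (0.786 CPM) and antrum 1 (1.84 CPM) were far below the other tumors, and the log2 fold change was -1.1 (SE 0.84, adjusted p = 0.31). Cxcl16, a transmembrane chemokine for CXCR6 and a scavenger receptor of macrophages, stood at 11.1, 43.6 and 36.8 CPM in antrum tumors, 21.3, 56.9 and 32.2 CPM in greater curvature tumors, 13.5, 38.7 and 24.3 CPM in lesser curvature tumors and 76, 40.7 and 42 CPM in corpus tumors, against 27.3, 41.6 and 36.2 CPM in normals. Tumors lay on both sides of the normals and the log2 fold change was 0.00 (SE 0.43). Cx3cl1, the fractalkine gene described above, stood at 6.52, 41.8 and 34.1 CPM in antrum tumors, 16.7, 60.8 and 17.1 CPM in greater curvature tumors, 5.75, 21.4 and 15.5 CPM in lesser curvature tumors and 60, 27.9 and 33 CPM in corpus tumors, against 36.9, 39.1 and 42.7 CPM in normals. The normals were close together, greater curvature 2 and corpus 1 were above them, and the log2 fold change was -0.58 (SE 0.52, adjusted p = 0.388).

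The tumors lowest in Cxcl17, Cx3cl1 and Cxcl16 were antrum 1 and lesser curvature 1 for all 3 genes, the same libraries that were lowest in the 10 epithelial markers. They were also the lowest in Cxcl14 and Cxcl12. Lesser curvature 1 was the highest library for Ccl25 and Ccl3. These relations were picked after the values were seen, and the part of epithelial content in these levels was not tested. No epithelial marker was at 0 in all libraries, and none of 10 was called in tumors against normal.

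**Figure D3:**
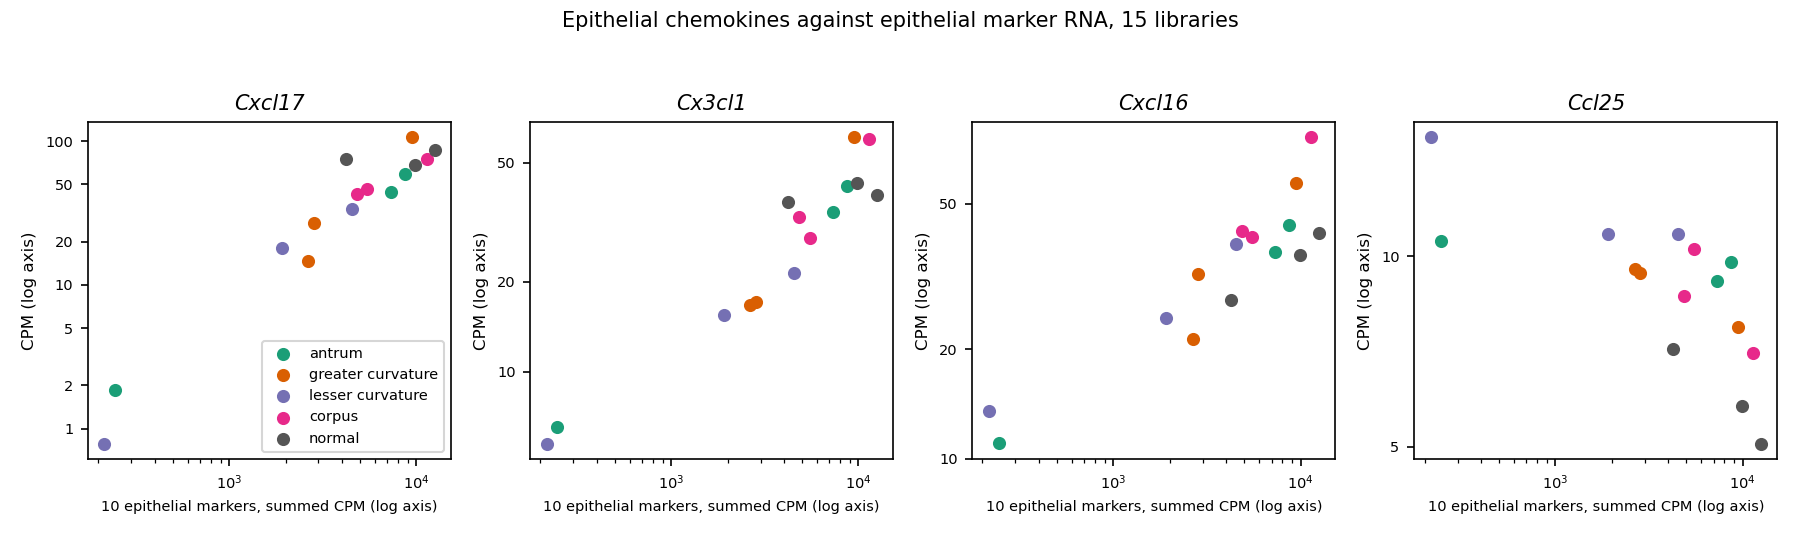
CPM (y axis, log) of Cxcl17, Cx3cl1, Cxcl16 and Ccl25 against the summed CPM of 10 epithelial markers (x axis, log) in 15 libraries, colored by group with the 4 tumor sites first in the legend. Antrum 1 and lesser curvature 1, at 246 and 216 CPM of the markers, are the lowest points for Cxcl17, Cx3cl1 and Cxcl16, while for Ccl25 lesser curvature 1 is the highest.

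Ccl28, a ligand of CCR10 and CCR3 in mucosal glands, stood at 2.03, 2.16 and 3.8 CPM in antrum tumors, 6.2, 11.2 and 2.83 CPM in greater curvature tumors, 2.16, 9.18 and 3.49 CPM in lesser curvature tumors and 5.61, 2.92 and 3.08 CPM in corpus tumors, against 7.79, 5.06 and 10.2 CPM in normals. In 8 of 12 tumors it was below all normals, greater curvature 2 was the highest, and the log2 fold change was -0.84 (SE 0.45, adjusted p = 0.158). Ccl20, the ligand of CCR6 that inflamed epithelium makes, stood at 0.123, 0.408 and 1.87 CPM in antrum tumors, 0.209, 2.2 and 0.419 CPM in greater curvature tumors, 0.147, 1.68 and 0.621 CPM in lesser curvature tumors and 0.158, 0.393 and 0.216 CPM in corpus tumors, against 0.808, 0.262 and 0.994 CPM in normals. Antrum 3, greater curvature 2 and lesser curvature 2 were each above all normals and the other tumors within or below them, and the log2 fold change was -0.14 (SE 0.85, adjusted p = 0.909). Cxcl15, a mouse chemokine known as lungkine, was called in the lesser curvature and nowhere else. It had 0, 0 and 0.143 CPM there, against 2.06, 0.698 and 0.459 CPM in normals. That is 3 counts against 42, a ratio of 0.0543 with an exact 95% interval of 0.0108 to 0.170 for counting error (adjusted p = 0.0288). Of the remaining members of the group, Ccl27a had a log2 fold change of 0.45 and Cxcr6 of -0.54, and Ccr6, Ccr10 and Ccl27b did not reach the count minimum.

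The eosinophil and type 2 group had no call among its 3 tested members. Ccl11 (eotaxin 1), made by fibroblasts and smooth muscle, was among the most abundant chemokine transcripts, 27.1 ± 12.5 TPM in tumors (SD, n = 12) and 22.5 ± 8.04 TPM in normals (n = 3). Ccl24 (eotaxin 2) was at 0 to 1.46 CPM in tumors and 0.459 to 0.698 CPM in normals. Ccl8 was highest in normal 2 at 7.5 CPM and ran from 1.05 to 3.25 CPM in tumors. Ccl1, Ccl17, Ccl22 and Ccl26 and the receptors Ccr3, Ccr4 and Ccr8 did not reach the count minimum.

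Ranked by mean TPM, the 5 most abundant members were Cxcl17, Ccl11, Cxcl16, Ccl6 and Ccl27a in tumors, and Cxcl17, Ccl11, Cxcl12, Cxcl16 and Cx3cl1 in normals. Ccl2 was the sixth in tumors, at 15.4 ± 7.05 TPM (SD, n = 12), and averaged 1.35 ± 1.41 TPM in normals (n = 3). Ccl21a was the seventh in normals: it averaged 3.46 ± 2.35 TPM in tumors (n = 12) and 12.3 ± 1.55 TPM in normals (n = 3).

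**Figure D4:**
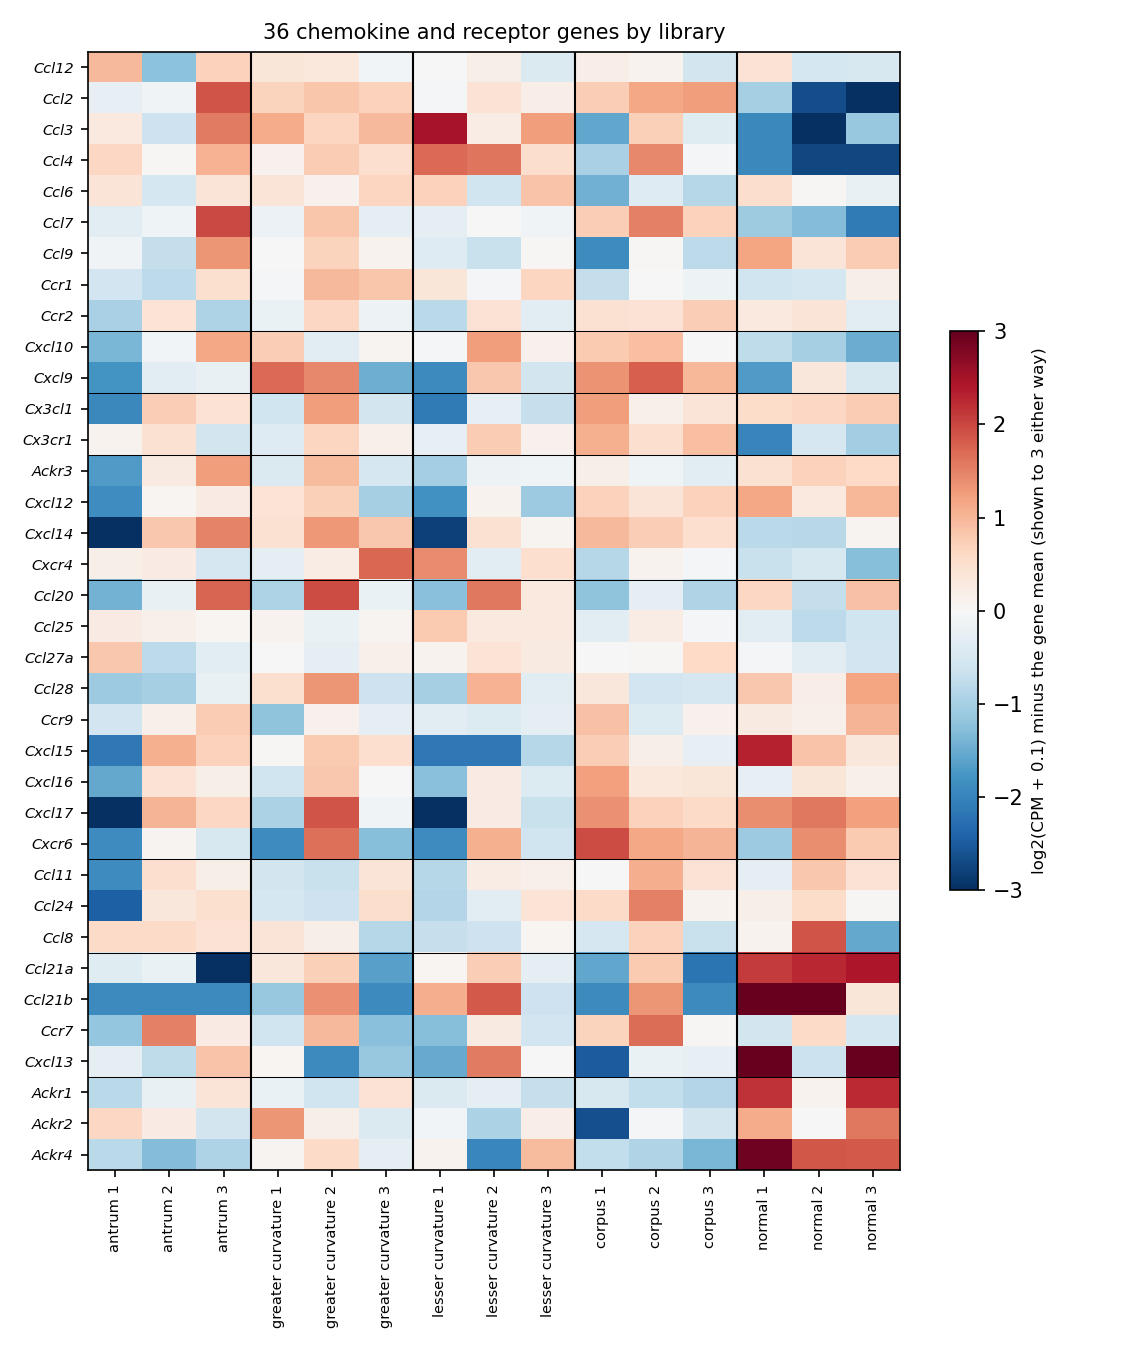
Log2 of CPM plus 0.1, less the mean of the gene over all libraries (color, shown to 3 either way), for the 36 genes (rows, grouped by role) in 15 libraries (columns, the 4 tumor sites left of the normals). The normals stand apart in Ccl2, Ccl4, Ccl21a and Ackr4, and antrum 1 and lesser curvature 1 are blue across Cxcl12, Cxcl14, Cxcl16, Cxcl17 and Cx3cl1.

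By site, tumors of the antrum had 6 calls among the 35 members against 14.7% of all genes, 3 of them higher (9.59% of all genes) and 3 lower (5.08%). The greater curvature had 3 calls (9.26% of all genes), 2 higher (6.5%) and 1 lower (2.76%). The lesser curvature had 8 calls (33.6% of all genes), 5 higher (18.2%) and 3 lower (15.3%). The corpus had 5 calls (3.54% of all genes), 3 higher (2.35%) and 2 lower (1.19%). These comparisons share the same 3 normals. Each count hung on single libraries: without normal 3 the counts were 1 in the antrum, 0 in the greater curvature and 0 in the corpus, and without lesser curvature 1 the count was 2 in the lesser curvature. Ccl2, Ccl4 and Ackr4 were called at every site, and Ackr1 at 3, missing the threshold in the greater curvature (log2 fold change -1.9, adjusted p = 0.0507). Among the 4 tumor sites, edgeR's F test called 0 of the 35 members and 0.0% of all genes at an adjusted p under 0.05. At an unadjusted p under 0.05 it found 947 of all genes and, among the members, Ccl6 (adjusted p = 0.825). DESeq2 called 0 members and 164 genes among sites, with 3 members at an unadjusted p under 0.05. A difference between sites was therefore not shown for any member, including those called at some sites and not at others.

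Of the cytokines known to induce chemokine genes, 3 of 9 tested rose and none fell. Among all genes tested, 16.2% were called higher and 15.7% lower. Tnf averaged 1.62 ± 1.14 CPM in tumors (SD, n = 12) and 0.101 ± 0.117 CPM in normals (n = 3), a log2 fold change of 3.74 (adjusted p = 0.00601). Il1b averaged 14.1 ± 10.2 CPM in tumors (n = 12) and 1.11 ± 0.316 CPM in normals (n = 3), a log2 fold change of 3.52 (adjusted p = 0.00694). Il6 averaged 4.64 ± 3.39 CPM in tumors (n = 12) and 0.220 ± 0.191 CPM in normals (n = 3), a log2 fold change of 4.32 (adjusted p = 0.0287). None of the 17 transcription factors and regulators listed (NF-kappaB, STAT and IRF genes) was called, with a median log2 fold change of -0.41.

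Downstream of the receptors, 3 of 17 tested genes of signaling and desensitization rose and 3 fell. Among all genes tested, 16.2% were called higher and 15.7% lower, so this count does not set the list apart. Rgs16, a brake on G protein signaling, had a log2 fold change of 2.87 (SE 0.59, adjusted p = 0.00595) and Prex1, a Rac activator, one of 0.84 (SE 0.18, adjusted p = 0.00637). Rgs2, of the same family as Rgs16, had one of -1.61 (SE 0.35, adjusted p = 0.00744). Of 15 genes that process, present or trap chemoattractants, 2 rose and 2 fell, which does not exceed those shares. Mmp12, the macrophage elastase that trims chemokines, averaged 23.5 ± 10.1 CPM in tumors (SD, n = 12) and 2.09 ± 1.68 CPM in normals (n = 3), a log2 fold change of 3.41 (adjusted p = 0.00312). Dpp4, the peptidase that clips and inactivates chemokines such as CXCL12 and CXCL10, averaged 3.08 ± 3.33 CPM in tumors (n = 12) and 16.3 ± 11.4 CPM in normals (n = 3), a log2 fold change of -2.62 (adjusted p = 0.0175). Rarres2, which encodes the chemoattractant chemerin, had one of -1.83 (SE 0.38, adjusted p = 0.00611).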

How the data were processed

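Bulk RNA sequencing of 15 stomach libraries was analyzed. Per the submitters' processing notes, GRCm38.p6, DESeq2, sleuth, kallisto 0.44.0 and bcl2fastq 2.19 were used, without the role of each. The authors deposited estimated counts per gene as whole numbers, and a second table named for FPKM whose columns each sum to 1000000, read here as TPM although the design had assumed FPKM. No source used here gives the annotation or strand setting of the counting.

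The main test was edgeR 4.0.16 (R 4.3.3) on these counts (filterByExpr with a minimum count of 10, TMM scaling, robust quasi-likelihood, 1 model of all 15 samples by group), giving log2 fold changes and Benjamini-Hochberg p-values over all 16224 genes, with calls at an adjusted p under 0.05. DESeq2 1.42.0 and limma 3.58.1 on log2 of TPM plus 1 served as other settings. The fit was tested on simulated data. Gene coordinates are from GENCODE M21 (GRCm38). Intervals, and the floor of 3 counts for a group at 0, cover counting error only.

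The members, their roles and the marker and pathway lists were chosen with earlier results of these data known. By a fixed rule, values per library are given for 15 chosen genes (among them Ccl2, Ccl5, Cxcl9, Cxcl12 and Cxcr4) and for every member called in all tumors or among sites, and at most 3 called genes per other list are named. For 1 gene that meets the rule, no values are reported here.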

Additional observations from a re-analysis of the deposited data

Results flagged for a closer look

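Cxcr6, the receptor of CXCL16 on T and NK cell subsets, lay on opposite sides of the mean of the normals in corpus and antrum tumors. The difference between these 2 sites alone was not tested, and a difference among the 4 sites was not shown. It stood at 1.34, 0.729 and 0.649 CPM in corpus tumors, all above the mean of the normals (0.494 CPM), and at 0, 0.291 and 0.165 CPM in antrum tumors, all below that mean. The normals themselves spread from 0.0735 to 0.872 CPM. Neither site was called against normal by edgeR (log2 fold change 0.87 in the corpus, adjusted p = 0.729, and -1.62 in the antrum, adjusted p = 0.444), and the F test among sites did not call it (adjusted p = 0.891).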

How the results depend on the processing

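Of the calls in all tumors against normal, Ackr1, Ackr4, Ccl2, Ccl21a and Ccl4 held under all 23 other settings, and the other 7 were lost under at least 1. The count of members called stayed at 11 to 14 under the other settings except without normal 1, 2 or 3, and ranged over single left-out libraries from 7 to 13. It ranged likewise from 1 to 7 in the antrum, 0 to 5 in the greater curvature, 2 to 10 in the lesser curvature, and 0 to 6 in the corpus, and was 0 among sites under every setting. Counts that moved by over 1.5 times were, with DESeq2, 11 in the antrum, 10 in the greater curvature and 10 in the corpus. With only the compared groups in the fit they were 1 in the antrum, 0 in the greater curvature and 1 in the corpus. On the TPM table (limma) the greater curvature had 8 calls with a pseudocount of 1, 8 with 0.1 and 6 with no filter, and the corpus 2 with no filter. With no filter on counts the corpus had 3 calls. Leaving out greater curvature 2 and corpus 1 together, a setting chosen after seeing the data, gave 5 in the greater curvature. The cause of these moves was not tested.

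Replicate numbers did not meet the rule for pairing, a correlation of deviations above 0.1 in every same-number pair. Over 30 same-number pairs it ran from -0.566 to 0.693 (median 0.169), with 17 above 0.1, and over 60 pairs of different numbers 20 were above 0.1 (median -0.065). As a hint from the data that the labels do not give, 10 of 15 samples correlated best with their own number. The replicate block gave 11 calls in all tumors (6 higher, 5 lower), Cxcl10 being lost (adjusted p = 0.0657), and 2 in the corpus.

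Directions turned only for genes that were not called. Cxcl16 was at -0.011 with DESeq2 and with its size factors, -0.028 with the replicate block, -0.202 without greater curvature 2 and corpus 1 together, and -0.15 to 0.143 over the left-out libraries, of which 6 turned it. Ccl20 was at 0.153, 0.131 and 0.153 and Ccr2 at 0.193, 0.338 and 0.193 on the TPM table (pseudocount 1, pseudocount 0.1, no filter), and over left-out libraries Ccl20 ran from -0.528 to 0.216 (without normal 3) and Ccr2 from -0.297 to 0.027 (without normal 2). The TPM table put the median log2 fold change of all genes at 0.432 (pseudocount 1) or 0.518 (pseudocount 0.1), against -0.043 in edgeR, so a log2 fold change below that is lower than the typical gene there. Over 22 genes, 456 of 504 values kept direction and call. Depth limited Ccl4, Ccl21b, Cxcl15 and the 21 genes under the count minimum.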

Other observations

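Several leukocyte lists that could hold carriers of these receptors showed few calls in all tumors against normal. Of 9 tested mast cell markers none was called, with summed levels of 82.8 to 608 CPM in tumors and 138 to 390 CPM in normals. None of 3 tested eosinophil markers was called, with 1.35 to 6.32 CPM in tumors and 2.06 to 8.72 CPM in normals, and Epx, the eosinophil peroxidase gene, was at 0 in all libraries. Of 5 tested dendritic cell markers, Fscn1 rose: it averaged 56.2 ± 39.4 CPM in tumors (SD, n = 12) and 7.38 ± 4.37 CPM in normals (SD, n = 3), a log2 fold change of 2.66 (adjusted p = 0.00481). Fscn1 also marks other motile cells.

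Stromal and epithelial lists differed from one another. Among all genes tested, 31.9% were called, 16.2% higher and 15.7% lower. None of the 10 general epithelial markers was called. Of 10 fibroblast markers, 2 rose and 1 fell: Pdgfrb, a receptor of stromal cells, rose by 1.64 on the log2 scale (adjusted p = 0.00277), Col1a1 by 2.39 (adjusted p = 0.0392), and Dpt fell by 2.41 (adjusted p = 0.00765). Of 10 markers of enteric neurons and glia, 5 fell and 1 rose. Of 11 squamous markers, 8 fell, where normal 2 held most of the signal. Their sum was 7269 CPM in normal 2, 13 CPM in normal 1 and 5.89 CPM in normal 3. In tumors it was 10.7 to 2322 CPM with a median of 30.1 CPM, above normal 1 and normal 3. Only normal 2 was above all tumors. Of 10 gastric gland markers 5 fell, among them Muc6 (log2 fold change -5.12, adjusted p = 0.00321). Of 10 neuroendocrine markers tested (median log2 fold change 1.82), only Ncam1 was called, higher in tumors (log2 fold change 1.61, adjusted p = 0.0144). Of 7 tuft cell markers tested, only Dclk1 was called, also higher (0.98, adjusted p = 0.0358). The tuft cell list as a whole did not follow it: its median log2 fold change was -0.65. Its summed level was 49.2 to 408 CPM in tumors and 124.5 to 496 CPM in normals.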
